A study of Homo sapiens with 6 samples.

Results

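The genes described here encode the tricarboxylic acid (TCA) cycle, the entry of pyruvate into it, succinate dehydrogenase (complex II) and the enzymes that refill or drain the cycle. They were chosen by name for these roles, with earlier results of these data known, and all 43 names were found among the 58735 genes of the expression table. By role they were 2 subunits of the mitochondrial pyruvate carrier, 5 genes of the pyruvate dehydrogenase complex, 7 genes of its kinases and phosphatases, 15 genes of cycle enzymes, 4 subunits and 4 assembly factors of complex II, and 6 genes of anaplerosis and aspartate exchange. RNA-seq was performed on MM.1S, a cell line established from human multiple myeloma (a plasma cell cancer). Control cells received a non-targeting siRNA (si-NC) and PRMT1 KD cells an siRNA against PRMT1 (si-PRMT1), with 3 libraries each. Per the study's methods siRNA was used at 100 nM and the RNA-seq cells were taken 72 h after transfection, and the labels name no other treatment. Knockdown by siRNA is transient and partial. The study's statistics section speaks of 3 "dependent biological replicates" for each experiment. The labels do not say whether the libraries of a group came from separate cultures. The p-values therefore measure the spread between these libraries, which may be technical.

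Pyruvate enters mitochondria through a carrier, and the pyruvate dehydrogenase complex turns it into acetyl-CoA, which citrate synthase joins to oxaloacetate. The cycle then oxidizes citrate through isocitrate, alpha-ketoglutarate, succinate, fumarate and malate, and the NADH and succinate it yields feed electrons to the respiratory chain. Complex II is both an enzyme of the cycle and a part of that chain. Transaminases, glutamate dehydrogenase, pyruvate carboxylase and malic enzyme exchange carbon between the cycle and amino acids or glycolysis.

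The libraries held 14439217 to 16465026 reads on genes, worked back from the deposited FPKM (fragments per kilobase of gene length, scaled to the size of the library). The knocked-down gene PRMT1, an arginine methyltransferase, was at 61.7, 62.8 and 59.0 FPKM in the control libraries and at 13.3, 14.0 and 12.5 FPKM in the PRMT1 KD libraries, 21.7% of the control mean. All 8 plasma cell markers examined were at 1 FPKM or more on average. Of the markers of other cells, CD3E was at 35.8 FPKM and CD3G at 3.05 FPKM with CD3D at 0.405 FPKM, and none of the monocyte, stromal or erythroid markers reached 1. The summed plasma cell markers ranged from 858 to 874 FPKM in control and from 833 to 879 FPKM in PRMT1 KD, and the summed T cell markers from 35.7 to 39.4 FPKM and from 39.8 to 42.5 FPKM. Within the plasma cell list, SLAMF7 was called lower, with means of 37.99 and 23.8 FPKM (limma adjusted p = 0.00515). PRDM1 (18.1 and 15.9 FPKM) and CD38 (1.92 and 2.45 FPKM) had separate groups and were not called. XBP1 (286.6 and 261.9 FPKM) and MZB1 (92.98 and 100.5 FPKM) also had separate groups, XBP1 lower and MZB1 higher in PRMT1 KD. In the T cell list, CD3E was higher in PRMT1 KD with separate groups, with means of 33.4 and 38.1 FPKM. CD3D, under 1 FPKM, went the other way with separate groups (0.678 and 0.132 FPKM), and the groups of CD3G overlapped (3.08 and 3.01 FPKM). The part of these marker differences in the results was not tested. In bulk RNA, fewer cells with a message and less of it per cell cannot be told apart.

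The study lists 3 PRMT1 target sequences for its siRNAs and does not name the one used for RNA-seq. They are shown because a short match to the siRNA seed can also occur in other messages. The capitals mark the 7 bases that pair with positions 2 to 8 of the guide strand.
si-PRMT1-1, the target numbered 1 among those listed: gcaactccatgTTTCATAa
si-PRMT1-2, the target numbered 2 among those listed: agacggtgttcTACATGGa
si-PRMT1-3, the target numbered 3 among those listed: ccatcgacctgGACTTCAa
Of the 10054 protein-coding genes tested with an annotated 3′ UTR, the capitals of si-PRMT1-1 occurred in a 3′ UTR of 22.8%, those of si-PRMT1-2 of 10.1% and those of si-PRMT1-3 of 14.0%. Among the 39 genes of the cycle that could be tested, the numbers were 7, 3 and 7. For si-PRMT1-1 they were SDHD, ME2, SDHC, MPC2, PDP1, PDK1 and SDHAF2, and for si-PRMT1-2 DLAT, DLD and SDHC. For si-PRMT1-3 they were CS, IDH3B, SDHD, DLST, ME2, SDHC and PDK1. Of these genes, CS, ME2, PDP1 and SDHAF2 had a log2 fold change above 0 and the others below 0. The part of such matches in the results was not tested.

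In control and PRMT1 KD cells alike, the messages of the cycle spanned a wide range of levels. FPKM divides reads by the annotated gene length, so the order of genes depends on these lengths. ME2, listed with 16243 bases, had 4427 to 4903 reads per library at a mean of 18.1 FPKM. MDH2, listed with 3641 bases, had 4582 to 5888 reads. The highest were the malate dehydrogenases MDH2 (mitochondrial) and MDH1 (cytosolic), with means of 90.5 and 87.8 FPKM over the 6 libraries, and the mitochondrial aspartate aminotransferase GOT2, with 68.5 FPKM. SDHB, SDHA, FH and CS followed, between 49.6 and 52.7 FPKM. These 4 encode the iron-sulfur and flavoprotein subunits of complex II, fumarase and citrate synthase, and their levels lay closer together than the spread of SDHB across the PRMT1 KD libraries (SD 6.49 FPKM). Most regulators of pyruvate dehydrogenase were low. The phosphatases PDP1 and PDP2, the regulatory subunit PDPR and the kinases PDK1 and PDK3 had means of 2.58 to 8.20 FPKM.

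**Figure D1:**
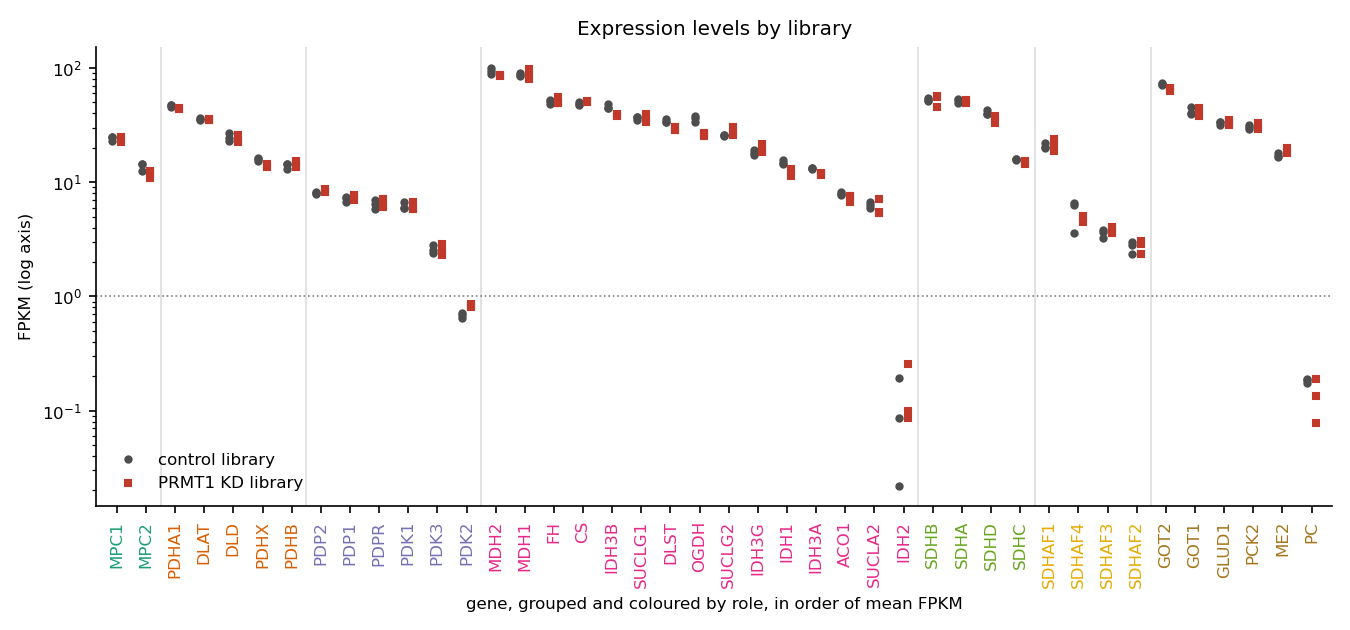
FPKM of 42 genes in each control (circles) and PRMT1 KD (squares) library on a log axis, grouped by role; the dotted line is 1 FPKM. PDK4, listed at 0 in all libraries, is not drawn, and IDH2, PC and PDK2 lie under the line.

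Of the 43 genes, 4 were too low to test (mean FPKM under 1). PDK4, a pyruvate dehydrogenase kinase known for its induction by fasting, is listed at 0 in all 6 libraries. For IDH2, the mitochondrial NADP-dependent isocitrate dehydrogenase, the reads numbered 9, 1 and 4 in control and 4, 4 and 11 in PRMT1 KD. PC, the pyruvate carboxylase that makes oxaloacetate, had 18, 18 and 17 reads and 13, 16 and 7 reads. Neither can be compared between groups with these few reads. PDK2 had 62, 63 and 58 reads in control and 74, 68 and 67 reads in PRMT1 KD, at 0.679 ± 0.0364 FPKM (SD, n = 3) and 0.827 ± 0.0308 FPKM (SD, n = 3). Its PRMT1 KD libraries all lay above its control libraries, and it was not tested across genes. Low values need not mean that a gene is silent, since the complex I subunit genes NDUFA7 and NDUFV2, used by most cells, were also low, at 0.416 and 0.955 FPKM.

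Differences between the groups were tested with limma on log2(FPKM + 1) over the 13585 genes whose mean FPKM reached 1, and a gene was called changed at a Benjamini-Hochberg adjusted p under 0.05. Of the 39 genes of the list tested, 2 were called, OGDH and IDH3B, both lower in PRMT1 KD, and 0 were called higher. Among all genes tested 2.05% were called, 145 higher and 134 lower, the latter 0.986% of all. Scaling shifted that split, to 71 higher and 143 lower with median scaling and to 227 higher and 131 lower after rescaling to TPM, and OGDH and IDH3B were called lower in both. At an unadjusted limma p under 0.05, 9 of the 39 (23.1%) were lower, against 9.47% of all genes, and 0 were higher. In 13 of the 39 every PRMT1 KD library was below every control library (33.3%), against 12.3% of all genes, and in 2 every one was above (5.13%), against 13.6%. The difference was below 0 in 24 of the 39 (61.5%), against 47.4% of all genes. The median log2 fold change was -0.03, beside 0.01 over all genes tested, and in 24 of the 39 the difference was smaller than 0.1 on the log2 scale.

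**Figure D2:**
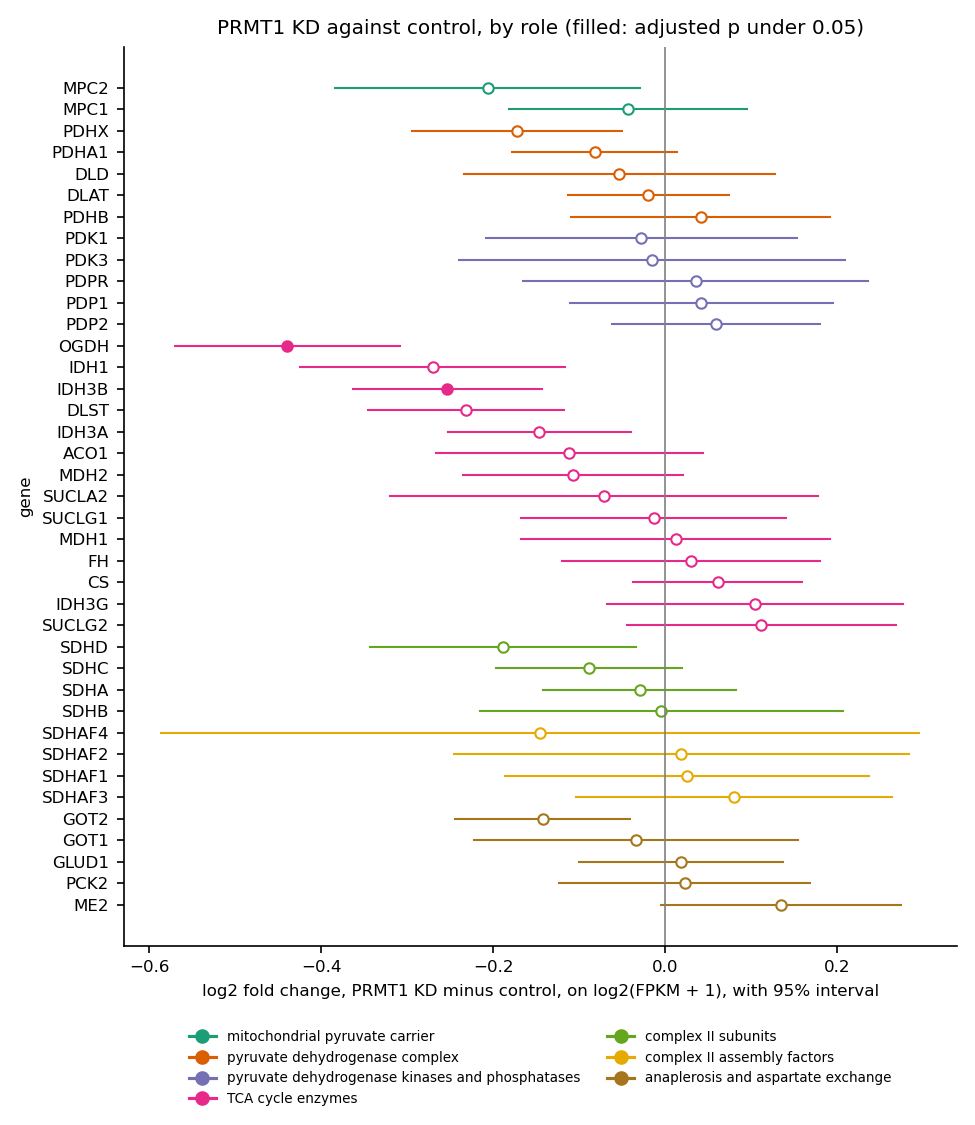
log2 fold change (PRMT1 KD minus control, on log2(FPKM + 1)) of the 39 genes tested, with 95% intervals from limma, coloured by role; filled points have an adjusted p under 0.05. OGDH (-0.44) and IDH3B (-0.25) are filled, both on the side of lower expression in PRMT1 KD.

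OGDH, the thiamine-dependent dehydrogenase of the alpha-ketoglutarate dehydrogenase complex, had the largest difference of the 39 genes tested. It is listed under ENSG00000105953 on chromosome 7 from 44606572 to 44709066 (hg38, plus strand), where the table lists no second gene. Its level was 36.5, 37.7 and 33.8 FPKM in the control libraries and 27.1, 26.3 and 25.4 FPKM in the PRMT1 KD libraries. Each PRMT1 KD library lay well under the lowest control library, and the PRMT1 KD mean was 73.0% of the control mean. On the log2 scale OGDH fell by 0.44 (standard error 0.0552, adjusted p = 0.0240 by limma), and the exact two-sided permutation p was 0.1, the smallest that 3 libraries against 3 allow. The gene had 1973 to 3168 reads per library. In none of its 7 annotated 3′ UTRs did the seed match of any of the 3 siRNAs occur.

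DLST, the succinyltransferase that forms the core of the same complex (ENSG00000119689, chromosome 14, 74881891 to 74903745, plus strand), was at 34.0, 35.9 and 33.5 FPKM in control and 28.8, 28.5 and 30.2 FPKM in PRMT1 KD. The groups did not overlap, and the difference was -0.23 on the log2 scale (standard error 0.0483). Its adjusted p by limma, 0.0648, did not pass the threshold. With a filter of 5 FPKM its adjusted p by limma was 0.0407, and with voom on reads 0.0254. DLST was called in only these 2 of 15 alternatives, and in the others its limma adjusted p ran up to 0.208. DLD, the lipoamide dehydrogenase shared with pyruvate dehydrogenase and other complexes, was at 23.1, 24.2 and 26.8 FPKM in control and 22.8, 22.6 and 26.0 FPKM in PRMT1 KD. Its groups overlapped, with a log2 fold change of -0.05 (95% interval -0.23 to 0.13). The 3′ UTR of DLST holds the match of si-PRMT1-3. The pseudogene DLSTP1, which could share its reads, was at 1.704 FPKM.

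Of the 3 subunits of the NAD-dependent isocitrate dehydrogenase, 1 was called. IDH3B, a regulatory subunit (ENSG00000101365, chromosome 20, 2658395 to 2664219, minus strand), was at 44.95, 48.4 and 45.1 FPKM in control and fell to 38.7, 37.8 and 39.2 FPKM in PRMT1 KD. The PRMT1 KD mean was 83.5% of the control mean, a decrease of -0.25 on the log2 scale (standard error 0.0465, adjusted p = 0.0487 by limma). The seed match of si-PRMT1-3 occurred in 2 of its 4 annotated 3′ UTRs. IDH3A, the catalytic subunit, was at 13.2, 13.0 and 13.2 FPKM in control and 11.8, 11.6 and 12.01 FPKM in PRMT1 KD. Its groups did not overlap, and the log2 difference was -0.15 (adjusted p = 0.141 by limma). IDH3G, the other regulatory subunit, was at 19.0, 17.2 and 17.9 FPKM in control and 18.3, 21.5 and 18.6 FPKM in PRMT1 KD, with overlapping groups and a log2 fold change of 0.10 (95% interval -0.07 to 0.28), which was 0.04 without PRMT1 KD replicate 2. IDH3G overlaps SSR4 on the opposite strand, which was at 60.2 FPKM. Overlaps here are of whole gene spans, introns included. The sources used here do not say if strand was used in counting or how reads on overlapping genes were assigned. Such reads may be shared or lost.

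IDH1, the cytosolic NADP-dependent enzyme (ENSG00000138413, chromosome 2, 208236227 to 208266074, minus strand), was at 14.4, 14.9 and 15.7 FPKM in control and 11.3, 13.0 and 12.5 FPKM in PRMT1 KD. The groups did not overlap, and the PRMT1 KD mean was 81.9% of the control mean. This was -0.27 on the log2 scale (standard error 0.0651), with an adjusted p by limma of 0.0896. With voom on reads the adjusted p was 0.0254. IDH1 was called in only this 1 of 15 alternatives, and in the others its limma adjusted p ran up to 0.227. IDH1 overlaps the antisense gene IDH1-AS1, at 1.55 FPKM.

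**Figure D3:**
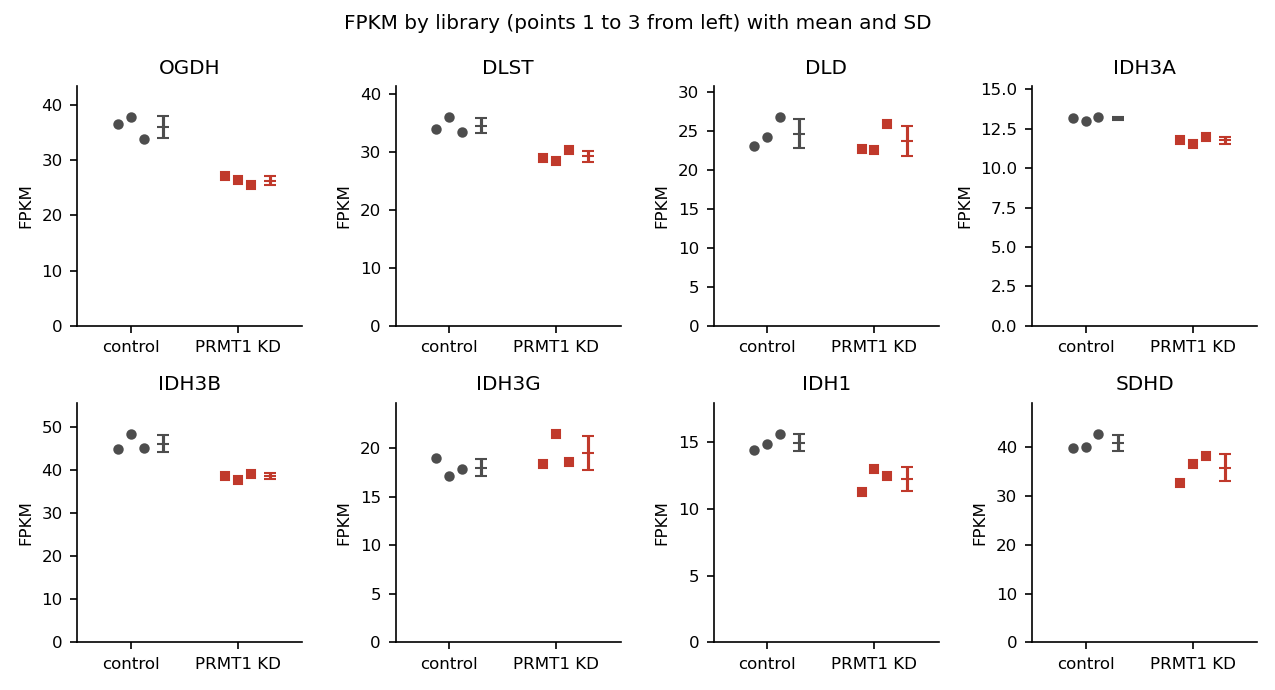
FPKM in each library of the alpha-ketoglutarate dehydrogenase genes, the NAD-dependent isocitrate dehydrogenase genes, IDH1 and SDHD, with the mean and SD of each group (n = 3); each axis starts at 0. PRMT1 KD libraries lie under all control libraries for OGDH, DLST, IDH3A, IDH3B, IDH1 and SDHD, and the groups overlap for DLD and IDH3G.

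The calls of both genes depended on the fit. OGDH was called in 8 of 15 alternatives and IDH3B in 5, both always lower. Leaving out 1 library gave adjusted p of 0.0325 to 0.135 for OGDH, which was called only without control replicate 3, and of 0.0787 to 0.174 for IDH3B. The log2 fold changes then stayed between -0.48 and -0.41 for OGDH and between -0.27 and -0.22 for IDH3B. With the replicate block IDH3B was not called (limma adjusted p = 0.0634).

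Promoters are shown for IDH3B and DLST, the genes with the smallest limma p after OGDH, of which DLST was not called. They are RefSeq sequences of GRCh38.p14, from 250 bases before to 50 bases after the annotated start, 5′ to 3′ along the gene. The promoter of IDH3B is chr20:2664167-2664466 on the minus strand and that of DLST is chr14:74881666-74881965 on the plus strand. OGDH has no entry among these sequences. The capitals mark matches to 6 motifs searched on both strands: CGCATGCG (NRF1), CCGGAAG (GABPA), GGGCGG (SP1), AAGATGGC (YY1), CACGTG (MYC/MAX) and TGATGCAA (ATF4).
IDH3B: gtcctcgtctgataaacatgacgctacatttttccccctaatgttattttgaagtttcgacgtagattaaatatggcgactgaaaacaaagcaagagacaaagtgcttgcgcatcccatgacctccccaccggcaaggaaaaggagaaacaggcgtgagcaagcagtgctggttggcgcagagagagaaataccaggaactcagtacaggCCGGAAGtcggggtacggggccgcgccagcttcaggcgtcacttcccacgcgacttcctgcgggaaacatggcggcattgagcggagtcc
DLST: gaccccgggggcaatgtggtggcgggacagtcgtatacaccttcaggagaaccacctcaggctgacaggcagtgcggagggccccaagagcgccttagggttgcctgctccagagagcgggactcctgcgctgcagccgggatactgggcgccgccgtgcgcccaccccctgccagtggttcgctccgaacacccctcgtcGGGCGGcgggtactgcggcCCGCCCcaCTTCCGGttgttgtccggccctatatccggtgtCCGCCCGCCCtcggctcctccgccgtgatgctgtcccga
The IDH3B promoter held 1 match, to GABPA, beginning 40 bases before the start. The DLST promoter held 1 match to GABPA, beginning 22 bases before the start, and 4 to SP1, beginning 49 and 30 bases before the start and at bases 12 and 16 after it. The last 2 overlap. Of all 35116 promoters of this length, 10.3% held the GABPA letters and 45.0% the SP1 letters, and of the 40 genes of the list with a promoter entry 9 and 30 did. The other motifs occurred in 1 of the 40 for NRF1 (2.02% of all promoters), 4 for YY1 (2.89%), 4 for MYC/MAX (7.26%) and 1 for ATF4 (0.866%). A gene of the list was counted if any of its promoters held the letters, while the percentages are of single promoters. The counts and the percentages are therefore not like for like. The motifs were picked with the results known, and a match is not a binding site.

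Among the remaining enzymes of the cycle, differences were smaller and none was called. Aconitase ACO1, the cytosolic form that also acts as an iron regulatory protein, differed by -0.11 on the log2 scale (adjusted p = 0.406 by limma), with PRMT1 KD libraries under control libraries. MDH2, the highest of the list, was at 93.7, 100.3 and 88.0 FPKM in control and 87.7, 87.4 and 86.0 FPKM in PRMT1 KD, a log2 difference of -0.11 (adjusted p = 0.331 by limma). The groups of MDH2 did not overlap, but its lowest control library lay within 1 FPKM of the highest PRMT1 KD library. MDH1 was at 86.0, 86.1 and 89.6 FPKM and at 80.0, 86.3 and 98.6 FPKM, so that its PRMT1 KD libraries lay on both sides of control. CS, the citrate synthase that opens the cycle, was at 48.8, 50.0 and 47.0 FPKM in control and 50.2, 51.2 and 50.7 FPKM in PRMT1 KD. All 3 PRMT1 KD libraries of CS were above control, by a log2 fold change of 0.06 (95% interval -0.04 to 0.16, limma adjusted p = 0.467).

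Succinyl-CoA ligase consists of SUCLG1 with either SUCLG2 (GTP-forming) or SUCLA2 (ATP-forming). The log2 fold changes were -0.01 for SUCLG1, 0.11 for SUCLG2 and -0.07 for SUCLA2, with overlapping groups in each. SUCLG2 was at 25.5, 25.8 and 25.8 FPKM in control and 25.8, 27.4 and 30.7 FPKM in PRMT1 KD, and SUCLA2 was at 6.28, 5.97 and 6.76 FPKM and at 5.37, 5.52 and 7.17 FPKM. The GTP-forming subunit had the higher FPKM in every library. FH, fumarase, had a log2 fold change of 0.03 (95% interval -0.12 to 0.18).

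Complex II oxidizes succinate with the flavoprotein SDHA and the iron-sulfur protein SDHB, held in the inner membrane by SDHC and SDHD. Of the 4 subunits, SDHD had the largest difference and none was called. SDHD, which the study also chose for its qRT-PCR panel, was at 39.9, 39.96 and 42.7 FPKM in control and 32.7, 36.5 and 38.1 FPKM in PRMT1 KD. The groups did not overlap, by -0.19 on the log2 scale (standard error 0.0656, adjusted p = 0.179 by limma). SDHD overlaps TIMM8B on the opposite strand, at 75.7 FPKM, and 3′ UTRs of SDHD hold the matches of si-PRMT1-1 and si-PRMT1-3. The pseudogene SDHDP6, which could share reads of SDHD, was at 3.94 FPKM. SDHC also separated, at 15.9 ± 0.174 FPKM (SD, n = 3) in control and 14.9 ± 0.450 FPKM (SD, n = 3) in PRMT1 KD, and its adjusted p by limma was 0.345.

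SDHA was at 53.7, 52.3 and 49.8 FPKM in control and 51.4, 52.2 and 49.0 FPKM in PRMT1 KD, with overlapping groups and a 95% interval of the log2 fold change from -0.14 to 0.08. Its pseudogenes SDHAP3 and SDHAP1, which could share its reads, were at 12.5 and 11.2 FPKM. SDHB was at 54.7, 52.2 and 51.1 FPKM in control and 45.3, 55.4 and 57.5 FPKM in PRMT1 KD. The PRMT1 KD libraries of SDHB spread to both sides of control, and its 95% interval ran from -0.22 to 0.21. The assembly factors SDHAF1, SDHAF2, SDHAF3 and SDHAF4, which help to insert flavin and iron-sulfur clusters, had overlapping groups and log2 fold changes from -0.15 to 0.08. SDHAF1, the highest of them, was at 22.1, 20.4 and 19.9 FPKM in control and 23.8, 21.4 and 18.6 FPKM in PRMT1 KD. SDHAF4 had the widest interval of the list (-0.59 to 0.30), with 84 to 158 reads per library. It was at 6.33, 3.62 and 6.64 FPKM in control and 4.75, 4.49 and 5.06 FPKM in PRMT1 KD, all within the control range, whose lower end is control replicate 2. Its log2 fold change was -0.38 without that library (limma adjusted p = 0.143), -0.04 without control replicate 1 and -0.01 without control replicate 3.

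At the entry of pyruvate, 0 of the 12 genes tested were called, and 2 had an unadjusted limma p under 0.05, both lower. With 2.05% of all genes called and 9.47% lower at that p, these counts are near the background. MPC2, a subunit of the mitochondrial pyruvate carrier, was at 14.5, 14.4 and 12.5 FPKM in control and 10.99, 12.4 and 12.01 FPKM in PRMT1 KD. The groups barely separated, and the log2 difference was -0.21 (adjusted p = 0.196 by limma). Its partner MPC1 was at 24.9, 23.1 and 24.8 FPKM and at 23.2, 25.1 and 22.3 FPKM, with overlapping groups. MPC2 overlaps DCAF6 on the opposite strand, at 7.13 FPKM, and a 3′ UTR of MPC2 holds the match of si-PRMT1-1.

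In the pyruvate dehydrogenase complex, PDHX, the protein that anchors DLD to the core, was at 15.3, 15.9 and 16.5 FPKM in control and 14.0, 13.5 and 14.5 FPKM in PRMT1 KD. The groups did not overlap, and the log2 difference was -0.17 (adjusted p = 0.135 by limma). PDHX overlaps APIP on the opposite strand, at 7.12 FPKM. PDHA1, the catalytic alpha subunit, was at 47.5, 47.2 and 45.2 FPKM in control and 43.5, 44.4 and 44.2 FPKM in PRMT1 KD, a log2 difference of -0.08 (adjusted p = 0.322 by limma). DLAT, the acetyltransferase core, had the narrowest interval of the list, from -0.11 to 0.07 around a log2 fold change of -0.02. PDHB, the beta subunit, was at 14.5, 14.3 and 13.1 FPKM and at 13.7, 14.2 and 15.4 FPKM, so that control and PRMT1 KD overlapped.

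The kinases PDK1 and PDK3 shut the complex off by phosphorylation, and PDP1 and PDP2 switch it on again. Their log2 fold changes, with that of PDPR, lay between -0.03 and 0.06, and none was called. PDK1 was at 5.95, 5.98 and 6.76 FPKM in control and 5.85, 5.78 and 6.66 FPKM in PRMT1 KD. PDK3 was at 2.55, 2.82 and 2.41 FPKM and at 2.52, 2.88 and 2.28 FPKM, and its groups overlapped like those of PDK1. PDP1 was at 6.73, 7.46 and 7.30 FPKM and at 6.97, 7.45 and 7.79 FPKM, again with overlap. PDP2 was at 7.80, 8.02 and 8.22 FPKM and at 8.26, 8.26 and 8.66 FPKM, with all PRMT1 KD libraries above control and a limma adjusted p of 0.567.

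Of the genes that exchange carbon with the cycle, GOT2 had the largest difference and none was called. GOT2 was at 71.98, 73.3 and 70.4 FPKM in control and 63.0, 64.9 and 67.4 FPKM in PRMT1 KD, without overlap, at a log2 difference of -0.14 (adjusted p = 0.136 by limma). Its cytosolic counterpart GOT1 was at 45.5, 40.8 and 39.7 FPKM and at 37.9, 40.1 and 45.1 FPKM, with overlapping groups. ME2, the mitochondrial malic enzyme that makes pyruvate from malate, had the highest log2 fold change of the list, 0.13 (95% interval -0.01 to 0.27, limma adjusted p = 0.271). It was at 16.5, 17.0 and 18.2 FPKM in control and 17.9, 19.2 and 19.8 FPKM in PRMT1 KD, so that 1 PRMT1 KD library lay under the highest control library. GLUD1, glutamate dehydrogenase, had a 95% interval from -0.10 to 0.14, and PCK2, the mitochondrial PEP carboxykinase, one from -0.12 to 0.17. GLUD1 overlaps SHLD2 on the opposite strand, at 10.45 FPKM, and its pseudogene GLUD1P3, which could share its reads, was at 4.95 FPKM.

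Ratios of FPKM within a library do not depend on the scaling between libraries, and 12 were compared. The exact two-sided permutation test could not give a p below 0.1, and after Benjamini-Hochberg adjustment over the 12 ratios the smallest was 0.3, so none passed. The ratio of OGDH to DLD was 1.58, 1.56 and 1.26 in control and 1.19, 1.17 and 0.977 in PRMT1 KD, lower in every PRMT1 KD library, with a log2 difference of -0.40 (exact permutation p = 0.1). The ratio of IDH3B to IDH3G was 2.37, 2.82 and 2.52 in control and 2.11, 1.76 and 2.10 in PRMT1 KD, again without overlap, with a log2 difference of -0.37 (exact permutation p = 0.1). DLST to DLD was lower by a log2 difference of -0.18 with overlapping groups (exact permutation p = 0.3). These 3 ratios were chosen after the values were seen.

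Among the other 9 ratios, the groups were separate in 2. PDHA1 to PDHB was 3.28, 3.31 and 3.45 in control and 3.18, 3.13 and 2.88 in PRMT1 KD. The summed kinases to summed phosphatases of pyruvate dehydrogenase stood at 0.632, 0.615 and 0.632 in control and 0.603, 0.606 and 0.592 in PRMT1 KD, a log2 difference of -0.06. The pairs MDH1/MDH2, GOT1/GOT2, SUCLA2/SUCLG2, MPC1/MPC2, SDHB/SDHA and PDK1/PDK3 had overlapping groups, with log2 differences from -0.20 to 0.18. IDH1/IDH2 rests on 1 to 11 reads of IDH2 per library and is not read further.

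**Figure D4:**
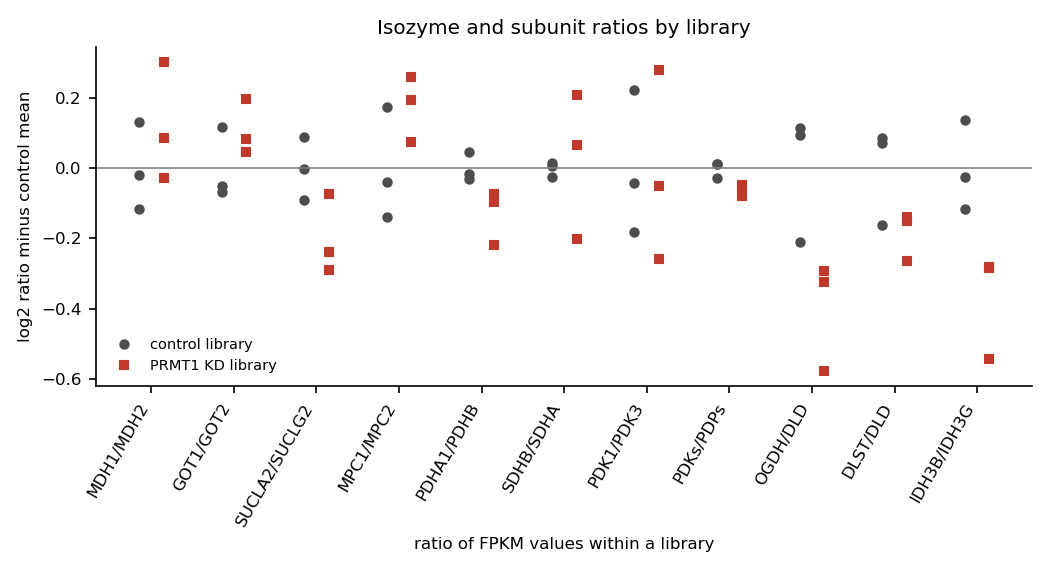
log2 ratio of FPKM within each library, minus the control mean of that ratio, for 11 ratios (IDH1/IDH2 is left out, since IDH2 had at most 11 reads); PDKs and PDPs are summed kinases and phosphatases. The 3 PRMT1 KD libraries lie under the control libraries for PDHA1/PDHB, PDKs/PDPs, OGDH/DLD and IDH3B/IDH3G.

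Genes around the cycle were taken from lists of related functions. Of 16 other enzymes of the cycle, glutamine and pyruvate use that were tested, 0 were called, and the smallest p belonged to GPT, an alanine aminotransferase. GPT was 4.52 ± 0.346 FPKM (SD, n = 3) in control and 3.10 ± 0.253 FPKM (SD, n = 3) in PRMT1 KD, a log2 difference of -0.43 (adjusted p = 0.0517 by limma). Of 15 genes of lipoate and iron-sulfur supply, 0 were called, and GLRX5 had the smallest p, a log2 difference of -0.19 (adjusted p = 0.126 by limma). Of 11 mitochondrial carriers, 0 were called. Their smallest p belonged to SLC25A11, the carrier that exchanges alpha-ketoglutarate for malate, which was 48.8 ± 2.06 and 41.4 ± 1.54 FPKM (SD, n = 3 each), a log2 difference of -0.23 (adjusted p = 0.0727 by limma).

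The rest of the respiratory chain is given beside complex II as a description, since all values come from the same libraries. The median log2 fold change was -0.06 over the 4 subunits of complex II, -0.09 over 35 nuclear subunits of complex I and -0.13 over 20 nuclear subunits of complexes III and IV. The difference was below 0 in 28 of the 35 and in 19 of the 20, against 47.4% of all genes. At an unadjusted limma p under 0.05, 34.3% and 50.0% of these subunits were lower, against 23.1% of the cycle list and 9.47% of all genes. In complex I, 1 gene was called, NDUFB2 (limma adjusted p = 0.0399), and in complexes III and IV 1, COX6A1 (limma adjusted p = 0.0425), against 2.05% of all genes. The difference between these lists was not tested.

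**Figure D5:**
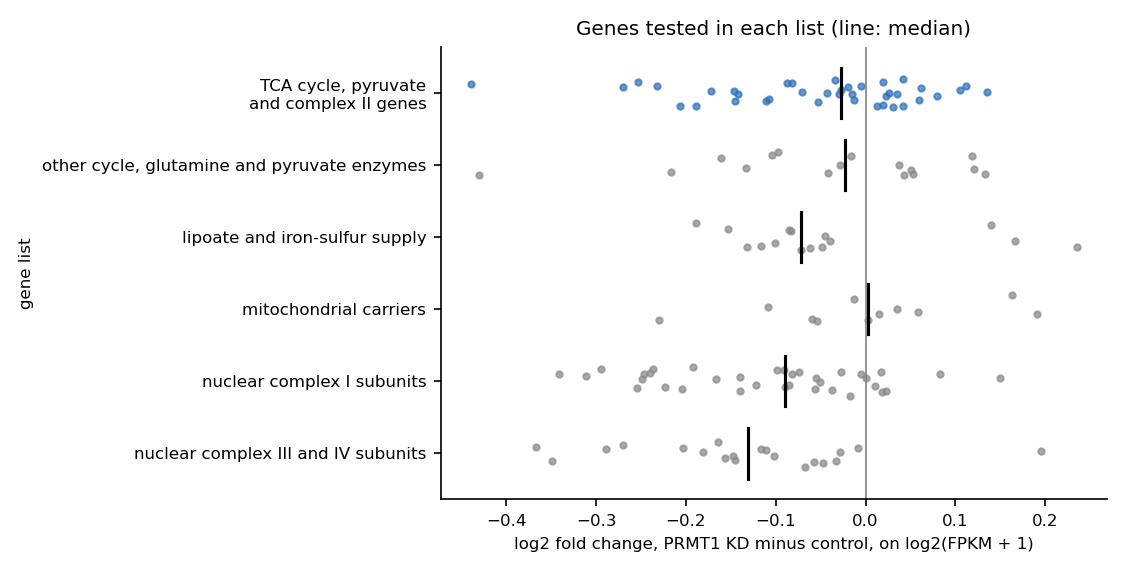
log2 fold change of each gene tested (points; vertical scatter has no meaning) in the cycle list and in 5 related lists, with the median as a line. The medians run from -0.13 for complexes III and IV to 0.00 for the mitochondrial carriers, with the cycle list at -0.03.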

How the data were processed

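Gene expression was measured by RNA-seq in 6 libraries of MM.1S cells. The table deposited by the authors gives FPKM for every gene in each library, beside gene lengths and coordinates, and the submitters' processing notes name featureCounts 1.5.0-p3 and hg38. The aligner, strand setting and annotation release are not given in the sources used here. All 43 genes had the same coordinates in GENCODE release 29. FPKM times length gave whole reads (within 0.01 of a read) for 100% of values above 0.

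Expression was tested with limma 3.58.1 in R 4.3.3 on log2(FPKM + 1) without rescaling, for genes whose mean FPKM reached 1, using moderated variances (empirical Bayes with a trend on mean level), two-sided, adjusted by Benjamini-Hochberg over all genes tested. A fold change is on this scale and understates changes of low genes. The fit was run on simulated data with changes larger than those of OGDH and IDH3B, so that run does not bear on calls of this size. Ratios were compared with an exact permutation test. Values in every library are given for genes called, for genes with an unadjusted p under 0.05 and separate groups, for the highest and most changed gene of each role, and for genes in ratios. The genes and lists were chosen with earlier results of these data known, and 3 ratios after the values were seen. The results were recomputed with a pseudocount of 0.1, no filter or one of 5 FPKM, median scaling, quantile normalization, TPM, no trend, voom on reads, the replicate block, each library left out, and unadjusted p.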

Additional observations from a re-analysis of the deposited data

How the results depend on the processing

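Tested genes of the list had at least 84 reads in every library, and a 95% interval reached 0.15 to either side on the log2 scale for the median gene. PRMT1 was lower and called in all alternatives run. The count of genes of the list called, 2 as reported, was 1 with a pseudocount of 0.1, 4 with voom (OGDH, IDH3B, DLST and IDH1), 9 at an unadjusted limma p under 0.05, and 0 to 1 when 1 library was left out. It was 0 with limma without a filter, where 12 genes of the list had an unadjusted p under 0.05, and 0 with limma without the trend, where 9 did. Over all genes the count, 279 as reported, was 35 without a filter, 473 with a filter of 5 FPKM, 43 without the trend, 927 with voom, 2655 at an unadjusted p, and 13 to 94 when 1 library was left out. The filters also change the number of genes tested, and leaving out 1 library leaves fewer libraries. The cause of the different counts was not tested. The median log2 fold change of the list was -0.053 with median scaling and -0.069 to -0.018 when 1 library was left out.

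With the replicate block, 1 gene of the list was called, OGDH, and IDH3B was not. The correlation between same-numbered libraries, each taken as its deviation from the mean of its group, was 0.02, 0.0631 and 0.101. It was not over 0.1 in every pair, and the main fit was left unpaired. Each library correlated best with the library of its own number in the other group, and the labels do not say whether these were paired.

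Genes whose log2 fold change passed 0 were not called in any alternative. Rescaling to TPM gave 2.3e-05 for DLAT, 0.0063 for SUCLG1 and 0.015 for SDHB, quantile normalization 0.0091 for SDHB, and median scaling -0.0060 for FH, -0.029 for MDH1, -0.0030 for SDHAF1, -0.0091 for PCK2 and -0.014 for GLUD1. With 1 library left out the log2 fold change ran from -0.0028 to 0.076 for PDHB, -0.116 to 0.0045 for DLD, -0.084 to 0.024 for PDK1, -0.078 to 0.042 for PDK3, -0.026 to 0.094 for PDPR, -0.074 to 0.041 for SUCLG1, -0.029 to 0.065 for FH, -0.069 to 0.080 for MDH1, -0.069 to 0.099 for SDHB, -0.054 to 0.113 for SDHAF1, -0.057 to 0.104 for SDHAF2, -0.022 to 0.068 for PCK2, -0.011 to 0.050 for GLUD1 and -0.102 to 0.025 for GOT1. The log2 ratio difference then ran from -0.067 to 0.138 for SDHB/SDHA and from -0.156 to 0.114 for PDK1/PDK3.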

Other observations

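Several relatives of the cycle enzymes had low values in both groups, which need not mean that they are silent, since FDX2, a ferredoxin of iron-sulfur cluster assembly, was also low, at 0.0975 FPKM. OGDHL, a close relative of OGDH, was at 0.0270 FPKM, while DHTKD1, which acts on alpha-ketoadipate with DLST and DLD, was at 16.2 ± 1.26 FPKM (SD, n = 3) in control and 16.7 ± 1.28 FPKM (SD, n = 3) in PRMT1 KD. The cytosolic PEP carboxykinase PCK1 is listed at 0, and the malic enzymes ME1 and ME3 were at 0.0183 and 0.153 FPKM, against 18.1 FPKM for ME2. BCKDHA, a subunit of the branched-chain keto acid dehydrogenase, was at 0.0921 FPKM beside 4.95 FPKM for its partner BCKDHB.

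Lactate dehydrogenase LDHA, at 81.7 FPKM, had a log2 fold change of 0.04, and LDHB, at 27.1 FPKM, one of -0.22 (limma adjusted p = 0.263), with overlapping groups in both. The pseudogene SDHAP3 was 13.8 ± 0.784 and 11.1 ± 0.567 FPKM (SD, n = 3 each), a log2 difference of -0.29 (adjusted p = 0.0684 by limma), while SDHA itself was at -0.03 on the same scale.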
